A study of Mus musculus with 70 samples.

Results

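The 9 genes of the mouse HoxC cluster (Hoxc4, Hoxc5, Hoxc6, Hoxc8, Hoxc9, Hoxc10, Hoxc11, Hoxc12 and Hoxc13) were followed through promoter-centered contact maps of fetal tissues. A contact here is an interaction called between a pair of 10-kb bins, and it was counted for HoxC when at least 1 of its ends lay in a bin with a GENCODE transcription start site (TSS) of 1 of these genes. The 15 annotated start sites fall into 9 bins of chromosome 15 on mm10, over 120 kb, and all 9 genes are transcribed toward higher coordinates. From the lowest coordinate they are the bins of Hoxc13 (chr15:102920001-102930000), Hoxc12 (chr15:102930001-102940000), Hoxc11 (chr15:102950001-102960000), Hoxc10 with an upstream noncoding start of Hoxc5 (chr15:102960001-102970000), Hoxc9 (chr15:102970001-102980000), Hoxc8 with a noncoding start of Hoxc6 (chr15:102990001-103000000), Hoxc6 (chr15:103000001-103010000), Hoxc5 with 1 start of Hoxc4 (chr15:103010001-103020000) and the other start of Hoxc4 (chr15:103030001-103040000). A bin with starts of a pair of genes was counted once and is written with both names, as Hoxc10/Hoxc5, Hoxc8/Hoxc6 and Hoxc5/Hoxc4. Over the 12 pooled call sets, 822 of 710161 calls (0.116%) involved these bins, and they make 232 distinct HoxC interactions with 56 partner bins.

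H3K4me3 PLAC-seq ligates chromatin ends that lie close together and then enriches, by immunoprecipitation, those with H3K4me3, a mark of active and poised promoters. It was carried out on tissue of C57BL/6N mice with no genetic or chemical treatment. At embryonic day 12.5 (E12.5) the tissues were neural tube (NT), hindbrain (HB), midbrain (MB) and forebrain (FB) of the nervous system, and liver (LV), limb (LM) and craniofacial prominence (CF). Forebrain was also taken on each day from E13.5 to E16.5 and at birth (P0). Each tissue and stage had 2 libraries labelled as biological replicates, and each sample is dissected tissue with many cell types, so that fewer cells with a contact and fewer contacts per cell cannot be told apart. CTCF ChIP-seq of the same tissues and stages gave 1 list of peaks each.

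The pooled sets held 21945 (LV E12.5) to 79677 (FB P0) interactions after the read pairs had been downsampled to equal numbers, and the replicate libraries, which were not downsampled, held 11396 to 63868. The limb libraries were uneven, with 12461 and 20775 interactions. Of 29 marker genes of the 7 tissues, 12 had most interactions, relative to the total of the pooled set, in their own tissue at E12.5 and 3 had none there (Atoh1 in hindbrain, Alb and Foxa3 in liver), so the number of interactions of a promoter is a partial check of a tissue label at best. Numbers of the replicate libraries are given scaled to the median total of 25872 interactions. A pair of bins that was not called has no value in the deposited calls, and a number of 0 is a number of calls, not an absence of contact. The authors tested only pairs with an H3K4me3 peak of the same tissue and stage at either end or both. An uncalled pair may therefore not have been testable in that tissue.

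Hox genes encode homeodomain transcription factors that set position along the body axis. They lie in their cluster in the order in which they are used from head to tail, with Hoxc4 at the anterior end and Hoxc13 at the posterior end. In the spinal cord the HoxC genes take part in setting motor neuron identity: Hoxc5 acts at cervical levels with the phrenic motor neurons, Hoxc6 and Hoxc8 at brachial levels, Hoxc9 at thoracic levels, and Hoxc10 and Hoxc11 at lumbar levels. Hoxc13 is known for its part in hair and nail. Most of the brain and the liver are anterior to, or outside, the territory of this cluster, where Polycomb complexes keep Hox clusters compact and repressed. CTCF is a DNA-binding protein whose motif has a direction. It divides Hox clusters and halts the extrusion of chromatin loops by cohesin, and loops form most often between motifs that point at each other.

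The CTCF sites below are shown because the partner ends of the most recurrent HoxC contacts hold them, along with the recurrent sites within the cluster. The motif was searched on both strands with a matrix of 19 bp estimated from the 5000 strongest peaks, whose consensus is:
CTCF matrix, bases found at most sites in capitals: tgGCCACcAGGGGGCGCta
Between 88.2% and 94.7% of all CTCF peaks of a tissue and stage held a match. Each site is given 5′ to 3′ on the strand of its motif, with the 19 matched bases in capitals and 5 flanking bases on each side in lower case. A forward motif lies on the strand of the HoxC genes and points toward higher coordinates, and a reverse motif points toward lower ones. Within the cluster the recurrent sites are:
Hoxc10/Hoxc5 bin, forward, chr15:102966569-102966587: cgaggCAGCTGCTAGGTGGCGCTGttact
Hoxc9 bin, in an exon of Hoxc10, reverse, chr15:102970932-102970950: cttgcTAATCTCCAGGCGGCGCTCtcgcg
between the Hoxc9 and Hoxc8/Hoxc6 bins, in an intron of Hoxc5, forward, chr15:102987590-102987608: acaagTGAACGCGAGGTGGCGCTGttgct
Hoxc5/Hoxc4 bin, in an intron of Hoxc5, forward, chr15:103013699-103013717: ccgagTCGGCACCAGGTGTCGCTGtgagc
Beyond Hoxc4, in the partner bins contacted in every tissue and stage, they are:
in an intron of Smug1, reverse, chr15:103165612-103165630: ctcaaTGGCCGATAGATGGCGCTCgtggc
between genes, reverse, chr15:103172704-103172722: ctgagCAGCCACAAGGGGGCTCTGggacc
between genes, reverse, chr15:103177231-103177249: acactTGACCAGCAGGGGGAAGCAgatgc
between genes, reverse, chr15:103182367-103182385: tcaggTGTCCGGCAGGGGGCGCCCgcgag
between genes, forward, chr15:103185971-103185989: cacggTGGCTGCCAGAGGGCAGCAtgaac
Beyond Hoxc4 and farther away, in a partner bin contacted by all 9 HoxC bins in neural tube:
in an intron of Gm49482, reverse, chr15:103307326-103307344: cacaaAGACCACCAGGTGGCGCTGtttcc
Beyond Hoxc13, in the most contacted partner bins of that side:
between genes, reverse, chr15:102742757-102742775: ccaaaCGGCCACCGGAGGGCGGCAgagaa
between genes, reverse, chr15:102753557-102753575: gtggaAAGCCACCAGGGGGCAGAAtcaag
The 3 forward sites of the cluster face the reverse sites printed beyond Hoxc4, among which the last forward site points the other way.

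Neural tube had by far the most HoxC interactions. In the pooled calls NT E12.5 had 161, and the other 11 tissues and stages had 32 (LV E12.5) to 78 (HB E12.5). Relative to all interactions of the set, NT had 22.5 HoxC interactions per 10000, and the others 5.60 (FB E16.5) to 14.6 (LV E12.5). The first place of NT held in the replicate libraries, while the order of the others did not. NT had 120 and 151 HoxC interactions, or 50.7 and 71.3 per 10000, whereas the 22 other libraries had 17 to 84, or 6.25 to 26.6 per 10000. The pair of NT libraries shared 111 interactions, 92.5% of the smaller and 73.5% of the larger. In limb, 17 and 26 interactions were called in the replicates, 15 of them in both, against 64 in the pooled set, of which 27 were called in either replicate. The pooled limb number thus rests mainly on calls that neither library reached alone.

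**Figure D1:**
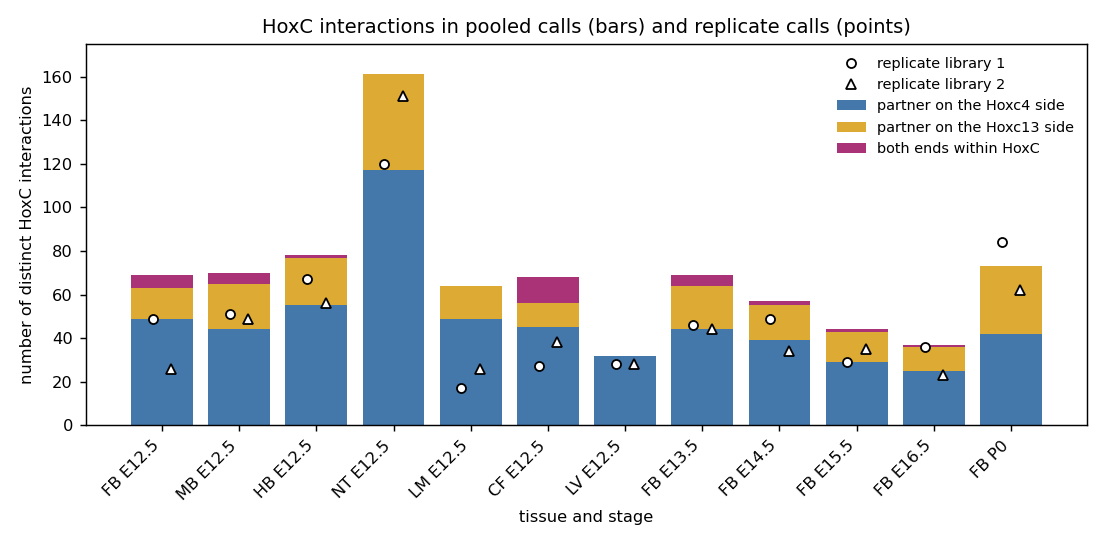
Number of distinct HoxC interactions (vertical axis) in each tissue and stage, with the pooled calls as stacked bars by the side of the partner and the 2 replicate libraries as open points. NT E12.5 reaches 161 in the pooled calls and 120 and 151 in its libraries, above every other tissue and stage, and LV E12.5 has partners on the Hoxc4 side only.

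Many of the NT interactions were found nowhere else. Of the 161, 52 (32.3%) were called in no other set, 15 with partners beyond Hoxc13 and 37 with partners beyond Hoxc4, while 18.0% of all NT interactions were called in no other set. In the 11 other sets 2.90% to 8.82% of the HoxC interactions were called in that set only, against 13.0% to 27.6% of all their interactions. Of the 232 distinct HoxC interactions, 88 (37.9%) were called in 1 set, 50 in at least 6 and 13 in all 12, whereas 48.3% of the 248620 distinct interactions of the genome were called in 1 set. These shares have no test, since neighbouring bins share contacts and are not independent.

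Each HoxC promoter bin was then compared across libraries. Both NT libraries had more interactions than all 12 other libraries at E12.5 in 8 of the 9 HoxC bins, which holds for 2.69% of the 5232 promoter bins tested. The exception was the Hoxc6 bin, where NT had 15.3 and 19.5 (scaled numbers of interactions) and LV had 12.1 and 18.2. In the Hoxc13, Hoxc12 and Hoxc4 bins the gap was narrow, with the lower NT library at 10.9, 8.74 and 8.74. The next libraries were MB replicate 1 at 10.8, FB replicate 1 at 8.43 and HB replicate 1 at 8.44. Limb stood at the other end: both LM libraries were below the 12 others in 2 of the 9 bins, Hoxc6 and Hoxc5/Hoxc4, which holds for 3.15% of the bins tested. The count of bins gives no independent evidence per gene, as a pair of neighbouring bins often contacts the same partner.

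**Figure D2:**
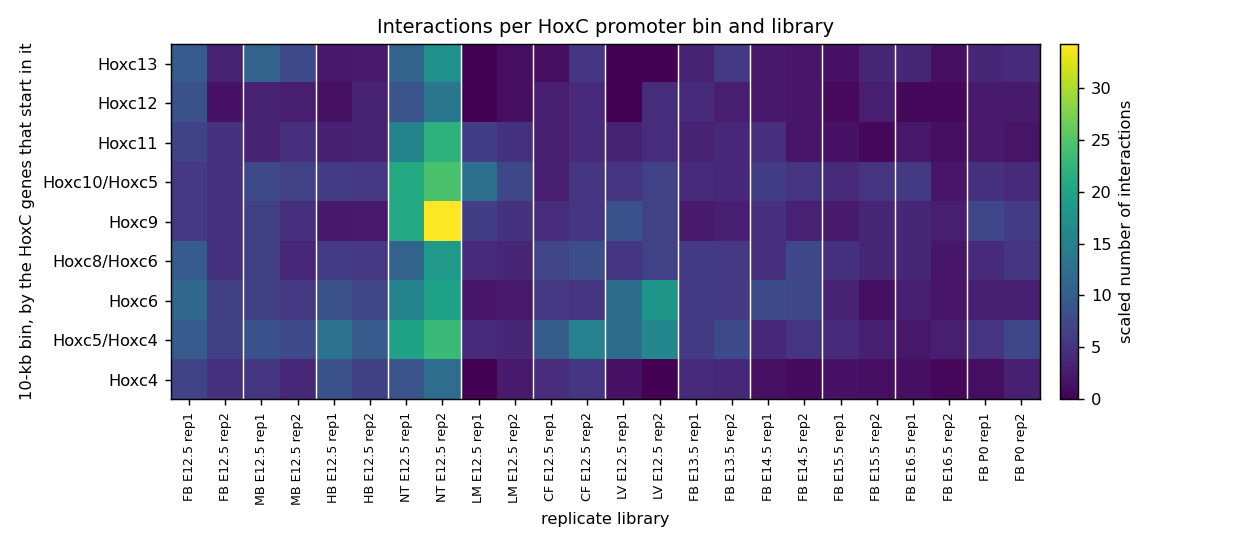
Scaled number of interactions (color) of each of the 9 HoxC promoter bins (rows, from Hoxc13 to Hoxc4) in the 24 replicate libraries (columns, 2 per tissue and stage). The pair of NT columns is the brightest in 8 of the 9 rows at E12.5, with the highest value, 34.2, in the Hoxc9 bin.

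The first comparison set the tissues posterior to the head, NT and LM, against the head tissues FB, MB, HB and CF at E12.5, the axis along which Hox genes are used. On the log2 scale of the scaled number plus 1, 3 of the 9 HoxC bins were higher in NT and LM and none was lower (limma, adjusted p under 0.05), where 3.92% of all promoter bins tested were higher and 5.01% lower. The 3 bins lie together in the middle of the cluster and hold Hoxc9, Hoxc10 and Hoxc11, with the noncoding start of Hoxc5. The median over the 9 HoxC bins was 0.03, and that over all promoter bins was -0.02. When the libraries were taken as 2 groups with no term for the tissue, so that the spread between tissues entered the error, 0 of the 9 passed, and edgeR and DESeq2 called 2 of the 3, without Hoxc11 (adjusted p = 0.0902 and 0.107).

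For Hoxc9, the thoracic gene, NT had 20.8 and 34.2 interactions, LM had 6.23 and 4.98, and the 8 head libraries had 2.30 at the lowest, 4.77 at the median and 6.50 at the highest. Both NT libraries lay above all head libraries, and both LM libraries lay within their range. The log2 difference was 1.34 ± 0.21 (SE, adjusted p = 0.00334, limma).

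For the Hoxc10/Hoxc5 bin, NT had 20.8 and 24.4, LM had 12.5 and 7.47, and the head libraries had 2.87 to 7.58 with a median of 5.66. Here the larger LM value was above the head as well. The log2 difference was 1.30 ± 0.21 (SE, adjusted p = 0.00449, limma). For Hoxc11, a posterior gene used in the hindlimb and the lumbar cord, NT had 15.3 and 22, LM had 6.23 and 4.98, and the head libraries had 2.87 to 7.03 with a median of 3.67. The log2 difference was 1.18 ± 0.22 (SE, adjusted p = 0.00739, limma).

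The mean of NT and LM joined tissues that went opposite ways, so each was also compared with the head on its own (a choice made after the data had been seen). NT alone was higher in the same 3 bins, by 2.38 for Hoxc9 (adjusted p = 0.00166), 1.95 for Hoxc11 (0.00771) and 1.87 for Hoxc10/Hoxc5 (0.00771), where 0.669% of all bins were higher and 0.478% lower. The other 6 bins had positive differences of 0.79 to 1.52 that did not pass, the nearest being Hoxc6 at 1.21 (adjusted p = 0.0504). LM alone was lower in 4 bins at the 2 ends of the cluster: by 1.87 on the log2 scale for Hoxc13, where the 2 libraries had 0 and 1.25, by 1.81 for Hoxc4 (0 and 2.49), by 1.27 for Hoxc6 (2.08 and 2.49) and by 1.12 for Hoxc5/Hoxc4 (4.15 and 3.74). Their adjusted p-values were 0.0136, 0.0154, 0.00499 and 0.00704 (limma), where 9.73% of all bins were higher in LM and 14.7% lower. In the pooled, downsampled sets limb lay nearer to the head, with 6 interactions of the Hoxc13 bin against 5 to 12, 8 of Hoxc6 against 8 to 12, 6 of Hoxc5/Hoxc4 against 9 to 18 and 5 of Hoxc4 against 6 to 10. The middle of the cluster did not follow in limb, with positive differences of 0.31 to 0.73 for Hoxc9, Hoxc10/Hoxc5 and Hoxc11 and adjusted p-values of 0.0726 to 0.430.

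Compared directly, NT was higher than LM in 9 of 9 HoxC bins, by 1.14 (Hoxc10/Hoxc5) to 3.29 (Hoxc13) on the log2 scale, with adjusted p-values from 0.000454 to 0.0420 (limma), where 11.3% of all bins were higher in NT and 5.94% lower. edgeR called the same 9. Without NT replicate 2, only Hoxc13, Hoxc9, Hoxc6 and Hoxc5/Hoxc4 passed, and these 4 also passed without each of the other NT and LM libraries. The sizes of the 9 differences were not tested against each other. The LM libraries had fewer interactions in all than the NT libraries (12461 and 20775 against 23690 and 21181), and the part of this in the difference was not tested beyond the scaling.

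**Figure D3:**
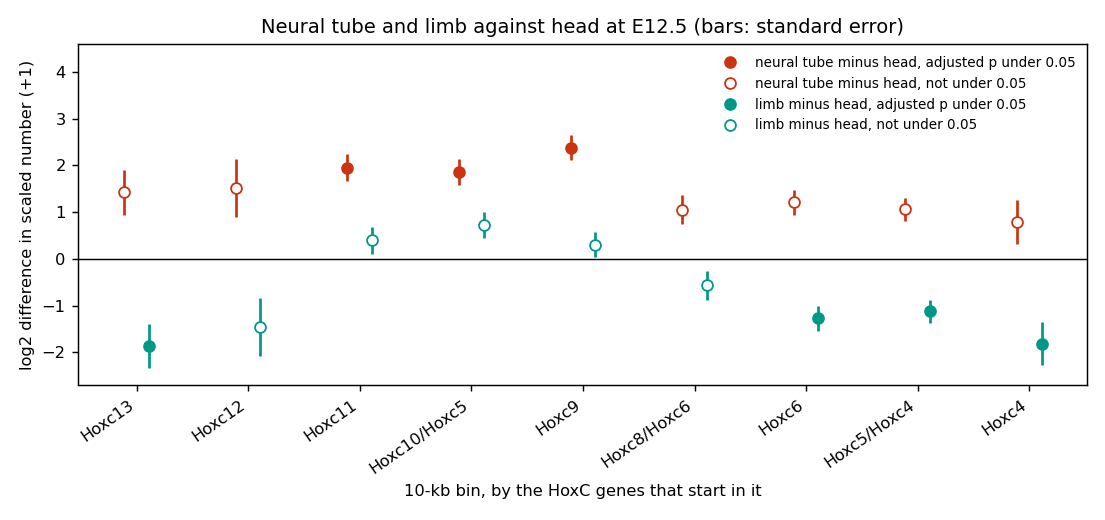
Log2 difference (vertical axis, on the scaled number plus 1, with its standard error) between neural tube and head and between limb and head at E12.5 for the 9 HoxC bins. Filled points passed an adjusted p of 0.05: Hoxc11, Hoxc10/Hoxc5 and Hoxc9 above 0 in neural tube, and Hoxc13, Hoxc6, Hoxc5/Hoxc4 and Hoxc4 below 0 in limb.

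Within the nervous system, NT was set against the brain (FB, MB and HB) at E12.5. Hoxc9, Hoxc11 and Hoxc10/Hoxc5 were again higher in NT, by 2.42 (adjusted p = 0.00192), 1.90 (0.00907) and 1.74 (0.0132) on the log2 scale (limma), where 0.497% of all bins were higher and 0.268% lower. The 6 brain libraries had 2.30 to 6.50 interactions for Hoxc9, 3.07 to 7.03 for Hoxc11 and 4.83 to 7.58 for Hoxc10/Hoxc5, below the lower of the NT values given above. The remaining 6 bins had differences of 0.73 (Hoxc4) to 1.56 (Hoxc12) with adjusted p-values of 0.0652 to 0.656. This comparison shares the NT and brain libraries with the one above and is not a second line of evidence. It rests on both NT libraries: without replicate 1 only Hoxc9 passed (2.77, adjusted p = 0.0102), and without replicate 2 none did, with Hoxc9 at 2.08 (adjusted p = 0.0619).

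The anterior genes were looked at in hindbrain, which reaches the anterior edge of Hox expression, against FB and MB at E12.5. None of the 9 bins passed (limma), where 0.191% of all bins were higher and 0.0956% lower. The lowest adjusted p-values of the HoxC bins were those of Hoxc9 and Hoxc13, both far from the threshold. For Hoxc9, HB had 2.30 and 2.44 against 4.71 to 6.50 in FB and MB, with a log2 difference of -0.92 (adjusted p = 0.305), and for Hoxc13 the difference was -1.29 (adjusted p = 0.457). edgeR and DESeq2 called none. For Hoxc5/Hoxc4, HB had 13.1 and 9.76 and the 4 FB and MB libraries had 6.44 to 9.84 with a median of 8.10, so that the groups overlapped. For the Hoxc4 bin, HB had 8.44 and 6.51, against 3.77 to 7.03.

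Limb was also set against craniofacial tissue, the other mesenchyme-rich tissue at E12.5. The Hoxc5/Hoxc4 bin was lower in limb, with 4.15 and 3.74 interactions against 10.1 and 15, and the groups did not overlap. The log2 difference was -1.43 ± 0.32 (SE, adjusted p = 0.0197, limma), where 2.39% of all bins were higher in limb and 5.35% lower. The call was lost with edgeR (adjusted p = 0.137) and DESeq2 (0.221), and without CF replicate 2 (0.109), LM replicate 1 (0.0758) or LM replicate 2 (0.0631). The Hoxc10/Hoxc5 bin went the other way, with 12.5 and 7.47 in limb against 2.87 and 5.45 in CF (1.09, adjusted p = 0.0734), and it passed when only interactions of at least 150 kb were counted (1.20, adjusted p = 0.0498).

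Through forebrain development, 4 of 9 HoxC bins were lower at the late stages (E16.5 and P0) than at the early ones (E12.5 and E13.5), where 13.5% of all bins were higher and 9.11% lower (limma). For Hoxc6, the 4 early libraries had 11.2, 6.44, 5.87 and 5.72 interactions and the 4 late ones 2.93, 2.11, 2.84 and 3.01, with no overlap (-1.12 ± 0.25, SE, adjusted p = 0.00804). For Hoxc4 the early libraries had 3.81 to 7.03 and the late ones 0.703 to 3.01 (-1.24, adjusted p = 0.00940), and for Hoxc11 3.35 to 7.03 and 1.41 to 2.43 (-0.93, adjusted p = 0.0351). For Hoxc5/Hoxc4 the ranges overlapped (-0.73, adjusted p = 0.0377). These calls depend on the scaling to the total number of interactions, which is higher late than early (35291 to 63868 against 16075 to 30876 per library): without scaling, 0 bins were lower and 1, Hoxc9, was higher (1.07, adjusted p = 0.0123), while the median of all bins moved from 0.06 to 0.72 and the bins called higher and lower from 702 and 475 to 1969 and 60. Relative to these medians, the median of the HoxC bins was lower by either measure (-0.73 scaled and 0.08 unscaled). edgeR and DESeq2 called 0 of the 9, and leaving out 7 of the 8 libraries in turn left 2, Hoxc6 and Hoxc4. In the pooled, downsampled sets E12.5 and E13.5 had 69 HoxC interactions each, E16.5 had 37 and P0 had 73. Per 10000 interactions these were 13.5, 12.1, 5.60 and 9.16. In the same order Hoxc6 had 9, 8, 5 and 7, Hoxc4 had 9, 7, 3 and 4, and Hoxc11 had 6, 5, 3 and 5. Hoxc5/Hoxc4 had 12, 12, 4 and 15, so it was not lower at P0.

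The Hoxc9 bin was the 1 bin with a positive late against early difference, which did not pass (0.25, adjusted p = 0.468, limma), and its difference from the other bins was not tested. Its P0 libraries had 7.29 and 6.02, above the E16.5 libraries with 3.67 and 2.81, and the pooled P0 set had 15 interactions of the Hoxc9 bin against 4 to 6 at the earlier stages. A rise from E16.5 to P0 was not particular to Hoxc9. The Hoxc5/Hoxc4 bin went from 2.20 and 2.81 at E16.5 to 5.27 and 7.22 at P0.

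The partners of HoxC lay on both sides of the cluster but not in equal number. The side beyond Hoxc4 (higher coordinates) held 144 of the 232 distinct interactions, the side beyond Hoxc13 held 73, and 15 had both ends within the cluster. In each pooled set, 57.5% (FB P0) to 100% (LV E12.5) of the HoxC interactions went to the Hoxc4 side. Liver had no partner beyond Hoxc13. The median distance of HoxC interactions was 170 to 230 kb per set, longest in NT, where contacts reached 420 kb. The median over all interactions was 170 kb in liver and 270 to 310 kb in the other sets.

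All 13 interactions called in all 12 sets went to 2 neighbouring partner bins beyond Hoxc4. The bin chr15:103170001-103180000 lies between genes, holds no TSS, and was called with 8 of the HoxC bins (all but Hoxc4) in every set, in 105 calls. The bin chr15:103160001-103170000 holds a TSS of Smug1, which encodes a uracil-DNA glycosylase, and was called with 5 of them in every set, in 101 calls. The next bin, chr15:103180001-103190000, was contacted in all 12 sets in 68 calls. Nearer to the cluster, the bins of D930007P13Rik (12 sets), of another start of Smug1 (11 sets) and of Gm49477 (11 sets) had 36, 39 and 25 calls, and a pair of bins next to them without a gene start had 19 and 12 calls in 8 and 7 sets. For the Hoxc5/Hoxc4 bin and chr15:103170001-103180000, 160 kb apart, the pooled sets had 419 read pairs in NT (49.8 expected, ratio of observed to expected 8.41), 221 in HB (29.1 expected, 7.59) and 27 in LM (6.0 expected, 4.50), with 45 to 150 in the others. For Hoxc9 and the same partner, NT had 349 read pairs (41.9 expected, 8.32), and the others 32 to 94, with ratios of 2.67 to 5.75. The expected number was also highest in NT for both pairs. The authors' fit draws it from the H3K4me3 enrichment of both ends among other terms, and the part of H3K4me3 in the number of calls was not tested.

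Farther beyond Hoxc4, more HoxC bins reached the same partners in neural tube than in the other tissues, and some partners were called in few or no other sets. The bin chr15:103300001-103310000, which holds a TSS of the unnamed transcript Gm49482, was contacted by 9 of 9 HoxC bins in NT and by 0 to 4 in the others, in 9 of 12 sets. Hoxc9 joined it by 188 read pairs in NT (18.9 expected, ratio 9.95), at 330 kb and with the highest ratio of any HoxC call. In limb the pair had 19 read pairs (5.98 expected, 3.18). Its neighbour chr15:103310001-103320000, with a TSS of Gpr84, a receptor for medium-chain fatty acids, was contacted by 7 HoxC bins in NT and by 0 to 4 elsewhere, in 11 of 12 sets. The bins of Zfp385a, which encodes a zinc finger protein, were contacted by 5 to 6 HoxC bins in NT and 0 to 2 in each other set. The bin of Copz1, a subunit of the coat of transport vesicles, was contacted by 4 HoxC bins in NT and by none elsewhere. These promoter bins were named by how often they were contacted, and their own expression was not analysed here.

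Beyond Hoxc13 the partners were fewer, and the most contacted held no gene start. The bins chr15:102740001-102750000, chr15:102750001-102760000 and chr15:102760001-102770000 were contacted in 11 of 12 sets, all but liver, in 54, 41 and 31 calls. On either side of them, chr15:102690001-102700000 and chr15:102770001-102780000 were contacted in 10 sets, in 25 and 19 calls, and chr15:102780001-102790000 in 7 sets, in 12 calls. The Hoxc10/Hoxc5 bin joined the first by 98 read pairs in NT (26.8 expected) and by 28 to 47 in the 8 other sets where the pair was called (10.9 to 17.3 expected). In the pooled NT set the bins used the sides differently. Hoxc12 had 9 of 13 partners beyond Hoxc13 and Hoxc11 had 10 of 24, while Hoxc8/Hoxc6, Hoxc6 and Hoxc5/Hoxc4 had 1 or 2 each and Hoxc4 had none.

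**Figure D4:**
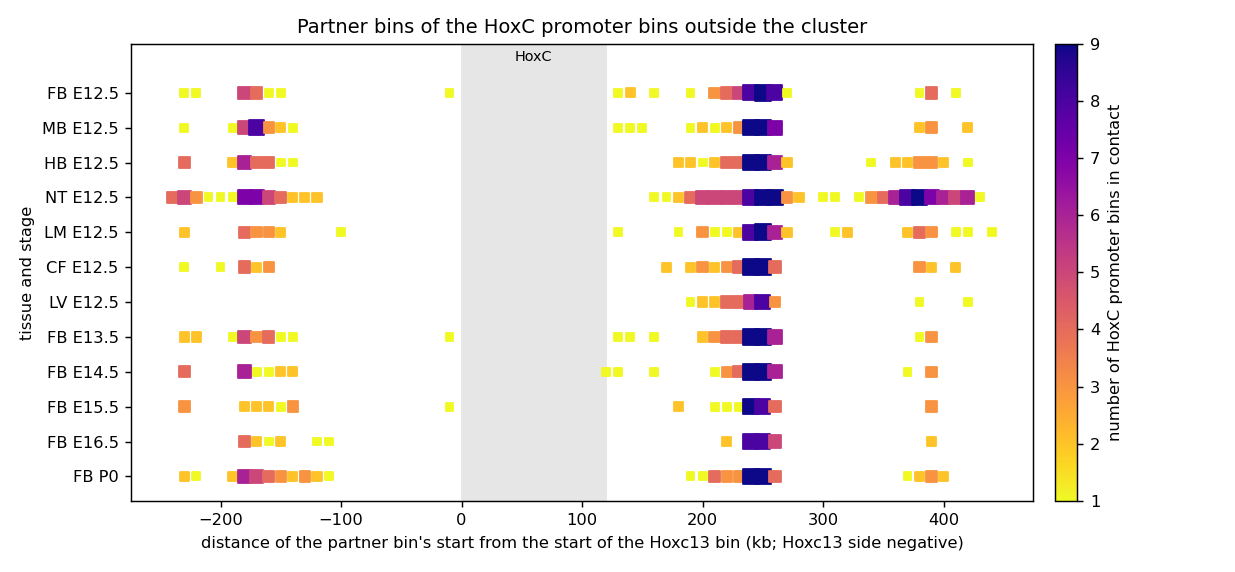
Partner bins of HoxC outside the cluster, by distance from the start of the Hoxc13 bin (horizontal axis, kb, the Hoxc13 side negative, the cluster shaded) and by tissue and stage (vertical axis), with color and size for the number of HoxC bins in contact. All 12 rows share the partners 240 to 260 kb from the start of the cluster, NT has up to 9 HoxC bins in contact at 380 kb where the other rows have 0 to 4, and liver has no partner on the Hoxc13 side.

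The 2 sides were tested apart by fitting partners of lower and of higher coordinate as separate features, within-cluster partners included. Of 16 HoxC features tested for NT and LM against head, 3 were higher and 1 lower (limma), where 3.82% of all features were higher and 4.81% lower. Partners of higher coordinate were more numerous in NT and LM for Hoxc9 (1.39, adjusted p = 0.00458), Hoxc10/Hoxc5 (1.35, 0.00427) and Hoxc11 (1.00, 0.0136). Partners of lower coordinate were fewer for Hoxc4 (-1.36, adjusted p = 0.0187), which had none of them in the pooled NT or LM sets. edgeR called 2 of these features, the higher-coordinate partners of Hoxc9 and Hoxc10/Hoxc5, and DESeq2 and the fit with 2 groups of libraries called 0. The lower call of Hoxc4 was also lost without CF replicate 2, LM replicate 1 or 2, NT replicate 1 or FB replicate 1. NT alone was higher than head for 8 of the 16 features, where 0.844% of all features were higher and 0.569% lower. The 8 were the higher-coordinate partners of Hoxc11, Hoxc10/Hoxc5, Hoxc9, Hoxc8/Hoxc6 and Hoxc6 and the lower-coordinate partners of Hoxc12, Hoxc11 and Hoxc9. The filter on the mean number includes the NT libraries. Without NT replicate 1, 15 HoxC features passed it, without NT replicate 2, 13, and without FB replicate 1, 14. Some features thus entered the test through NT, where they are high, and the count of 8 of 16 is a description. LM alone was higher for 1, the higher-coordinate partners of Hoxc10/Hoxc5 (0.98, adjusted p = 0.0227), and lower for 5, where 10.4% of all features were higher and 15.4% lower.

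Contacts with both ends inside HoxC were called in 8 of the 12 sets and were absent from NT, LM, LV and FB P0, in the pooled sets as in their replicate libraries. There were 33 such calls: 12 in CF, 6 in FB E12.5, 5 each in MB and FB E13.5, 2 in FB E14.5 and 1 each in HB, FB E15.5 and FB E16.5. The joined bins lay 30 to 110 kb apart. In CF, Hoxc12 and Hoxc4, 100 kb apart, were joined by 86 read pairs (33.0 expected, ratio 2.61), and Hoxc13 and Hoxc11, 30 kb apart, by 150 (70.0 expected, 2.14). In FB E13.5 Hoxc12 and Hoxc4 had 84 read pairs (32.3 expected, 2.60). The ratios were 2.00 to 2.67 in all 33 calls, close to the authors' limit of 2, and CF had 3 and 6 such calls in its replicates. The difference between tissues was not tested, and an uncalled pair may not have been testable in a tissue without an H3K4me3 peak at its ends.

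CTCF peaks with a motif lay in 2 (FB E12.5) to 5 (NT) of the 9 HoxC bins, with 2 to 7 peaks per list. The peak lists have no replicate values, and the libraries of LV and FB E14.5 are labelled technical replicates while FB P0 has a single library, so fold enrichments over input are given as values with no test. The forward site of the Hoxc10/Hoxc5 bin, which lies between genes upstream of Hoxc10, was strongest in NT (42.9-fold over input) and LM (29.7-fold) and was 9.59- to 27.3-fold in the 10 others. The reverse site in the Hoxc10 exon was weak (5.09- to 11.9-fold) and had no peak in FB E12.5. The forward sites in the introns of Hoxc5 were present in all 12 lists, at 16.5- to 45-fold and at 14.5- to 44.4-fold, with NT at 34.9 and 25.2. In NT alone, peaks of 3.98- to 4.59-fold with a motif appeared in the Hoxc6 and Hoxc5/Hoxc4 bins. The Hoxc12 bin held a weak peak with a motif in NT (4.19-fold) and CF (2.72-fold) only.

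The partner sites printed above had peaks in all 12 lists. Beyond Hoxc4, the site in the Smug1 intron was 23.1- to 81.8-fold over input, and the sites at chr15:103172704-103172722, chr15:103177231-103177249 and chr15:103182367-103182385 were 14.9- to 39.7-fold, 21.3- to 50.2-fold and 33.7- to 79.5-fold. The forward site at chr15:103185971-103185989 was weaker, at 7.92- to 18-fold. The site in the Gm49482 intron, in the partner that all 9 HoxC bins reached in NT, was 25.9- to 44.6-fold in all 12 lists, so its CTCF peak was present where the contacts were not called. Beyond Hoxc13 the sites printed above were 28.2- to 62.8-fold and 26.0- to 50.5-fold.

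The partner end of a HoxC interaction that leaves the cluster held a CTCF peak with a motif in 65.6% (LV) to 89.3% (CF) of calls. Of the 57 bins on both flanks of the cluster within reach of these contacts, 42.1% to 52.6% held one. The first share counts calls and the second counts bins, so a bin contacted often weighs more in the first. Over the 12 sets 789 calls left the cluster. The bins chr15:103160001-103170000, chr15:103170001-103180000 and chr15:103180001-103190000, with sites printed above, took 101, 105 and 68 of them. The HoxC end held a CTCF peak with a motif in 23.8% (FB E12.5) to 60.2% (NT), both ends in 19% to 46.6%, and neither end in 2 to 15 interactions per set. The share next to that of NT was 53.4% (FB P0). The NT share counts 13 calls of the Hoxc12 bin and 16 of the Hoxc6 bin, whose peaks were weak, at most 4.59-fold over input. Where both ends had sites of a single direction, the arrangement differed by side. Of 148 such calls to the Hoxc4 side, 89 (60.1%) were convergent, 46 (31.1%) had both motifs reverse, 9 both forward and 4 divergent. Of 57 to the Hoxc13 side, 22 (38.6%) were divergent and 10 (17.5%) convergent. The recurrent sites at HoxC ends are the forward ones of the Hoxc10/Hoxc5 and Hoxc5/Hoxc4 bins and the reverse one of the Hoxc9 bin. These numbers thus count a few sites many times, and they were not tested.

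**Figure D5:**
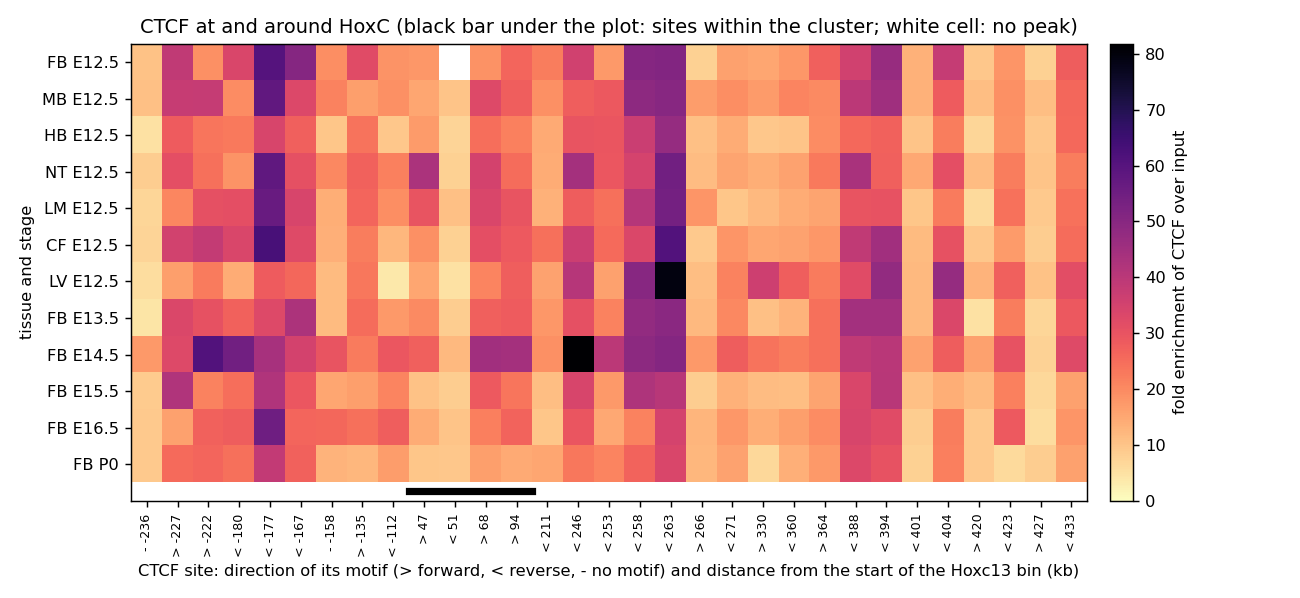
Fold enrichment of CTCF over input (color) at recurrent CTCF sites in and around HoxC, in order along the chromosome (horizontal axis, with the direction of the motif and the distance from the start of the Hoxc13 bin in kb), by tissue and stage (vertical axis). The forward site upstream of Hoxc10 is at 42.9-fold in NT and 29.7-fold in LM against at most 27.3-fold elsewhere. Only sites with a peak in nearly all lists and a high median enrichment are drawn, so presence across the rows follows from this choice. Weaker or less recurrent sites are left out, such as chr15:103121620-103121638 beyond Hoxc4, with peaks only in NT (7.03-fold) and LM (5.30-fold).

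The other Hox clusters and the regulators of Hox genes were given the same comparisons. In the pooled NT set HoxA had 304 interactions, HoxB 298 and HoxD 375, each the highest of its 12 sets. In NT against brain, 5 of 10 bins of HoxA, 1 of 10 of HoxB and 1 of 10 of HoxD were higher. In late against early forebrain, 5 of 9 bins of HoxA, 8 of 9 of HoxB and 6 of 10 of HoxD were lower. The HoxC counts were 3 of 9 and 4 of 9. Over all bins, 0.497% were higher in the first and 9.11% lower in the second of these comparisons. In NT and LM against head, HoxA had 6 of 10 bins higher and none lower, and HoxD had 2 of 10 higher. HoxB had 3 of 10 lower (Hoxb13, Hoxb9 and Hoxb4), and in limb against CF 7 of its 10 bins were lower. The retinoic acid and Cdx regulators had 2 of 13 bins higher, those of Cyp26b1 (1.32, adjusted p = 0.00512), which degrades retinoic acid, and of Aldh1a2 (1.53, 0.0125), which makes it, and 1 lower. Of 19 bins of Polycomb subunits 1 was higher (Jarid2) and 2 were lower (Bmi1 and Phc2), and of 8 bins of TALE cofactors, the partners of Hox proteins on DNA, 1 bin of Meis2 was lower. Among 10 bins of genes that flank HoxC, Copz1 was higher (1.79, adjusted p = 0.00982, limma) and the Smug1 bin contacted everywhere did not differ beyond its error (-0.000864 ± 0.198, SE, adjusted p = 1, limma). Each count of NT and LM against head is to be read against the 3.92% of all bins higher and 5.01% lower.

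The bins on other chromosomes whose scaled number followed that of HoxC most closely over the 12 tissues and stages were those of Tex264 (Pearson r = 0.911), Paics and Ppat (0.858), Ihh (0.828), Extl2 and Slc30a7 (0.818) and Cd3eap, Ercc1 and Ppp1r13l (0.786), out of 6585 bins compared. All 5 had most interactions in NT (8 to 16, with medians of 2 to 4 in the other sets). Without NT their r was 0.849, 0.707, 0.697, 0.686 and 0.435. The 12 points share the totals of their sets, and the likeness is a description.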

How the data were processed

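H3K4me3 PLAC-seq and CTCF ChIP-seq calls were taken as deposited. The authors aligned reads to mm10 and, with MAPS, deposited a list of 10-kb bin pairs, each with its read count. The expected signal of the pair is the authors' fitted value, as deposited. The FDR, a q-value per pair, was computed by the authors, who kept pairs at an FDR below 1%, a ratio of observed to expected of at least 2 and 20 to 1000 kb on 19 autosomes, per replicate and for pooled, downsampled replicates. CTCF peaks carry the fold enrichment over input of MACS2, computed by the authors. The submitters' processing notes name BWA, SAMtools, Juicer and MACS2, with versions not given in the sources used here. The smallest read count of a call was 6, which with the FDR limits what depth can show. Of 70 samples, 24 were PLAC-seq libraries, 23 CTCF and 23 input.

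Promoter bins (35186, of 20807 autosomal protein-coding genes) came from GENCODE M21 on GRCm38, the assembly called mm10. Interactions per bin and library were scaled to the median total (25872), and log2 of the number plus 1 was fitted with limma 3.58.1 (trend option, R 4.3.3) by tissue and stage, over bins with a mean of at least 1, with Benjamini-Hochberg adjustment over all bins and a two-sided threshold of 0.05. The spread is that between the 2 replicates of a tissue and stage, so the p-values do not cover variation between tissues, animals or litters beyond it. The 5 comparisons are those of the text, and limb and neural tube apart were added after the data were seen. edgeR 4.0.16 and DESeq2 1.42.0 on the numbers of interactions, other filters, pseudocounts and scalings, distance limits, a replicate block and leaving out each library were alternatives. Tables were handled in Python 3.11.15 (numpy 2.4.6, pandas 2.3.3, pysam 0.24.0, matplotlib 3.10.9). CTCF motifs were matched at a threshold of 0.0001 per position, and directions were set so that forward motifs prevail at the lower-coordinate ends of interactions (71.5% against 26.2% at the other ends in FB E12.5). The steps were tested on simulated data.

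All HoxC genes and bins are named. Partner bins are named where HoxC contacted them in at least 6 of 12 sets or most often on their side, and the NT partners beyond them (Zfp385a, Copz1) were chosen after their values were seen. The 5 most alike bins and, per gene list, the 3 smallest adjusted p-values follow rules of the same design. The members and lists were chosen with earlier results of these data known. Replicate numbers did not pair libraries (correlation of deviations -0.05 to 0.03 over 21 pairs of tissues and -0.06 to 0.08 over 15 pairs of forebrain stages). Input libraries, H3K4me3 peaks, expression and 1 second CTCF list (limb) were not used here.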

Additional observations from a re-analysis of the deposited data

Results flagged for a closer look

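Among groups of 4 to 8 libraries, 54 combinations of group and HoxC bin were looked at for a library far from its group. Of these 2 had one, where chance gives about 1 in 20. The groups share libraries, so the combinations are not independent. In the Hoxc13 bin, FB E16.5 replicate 2 had a scaled number of 1.41 interactions against 3.65 to 4.21 in the other late forebrain libraries. In the Hoxc6 bin, FB E12.5 replicate 1 had 11.2 against 5.72 to 6.44 in the other early forebrain libraries, and Hoxc6 is among the bins lower at late stages.

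In 6 HoxC bins NT and LM lay on opposite sides of the head tissues, and the difference between NT and LM passed limma's test over all bins. Of all bins tested, 11.3% were higher in NT than in LM and 5.94% lower. The share of all bins that also lay on opposite sides of the head was not computed, so the count of 6 is a description. The difference was 3.29 on the log2 scale for Hoxc13 (1.42 in NT and -1.87 in LM against head, adjusted p = 0.00291) and 2.98 for Hoxc12 (1.52 and -1.46, 0.0209). It was 1.62 for Hoxc8/Hoxc6 (1.06 and -0.56, 0.0136), 2.48 for Hoxc6 (1.21 and -1.27, 0.000454), 2.18 for Hoxc5/Hoxc4 (1.06 and -1.12, 0.000690) and 2.60 for Hoxc4 (0.79 and -1.81, 0.0102). The test shares the libraries of the comparisons with head. Leaving out either NT or LM library in turn, Hoxc13, Hoxc6 and Hoxc5/Hoxc4 passed each time, and the other 3 missed at least once.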

How the results depend on the processing

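Over the called HoxC bins, 90 of 130 values under alternatives other than leaving out a library kept direction and call, 39 kept direction only and 1 turned (Hoxc5/Hoxc4 in late forebrain without scaling, 0.0845, adjusted p = 0.765), and of 142 with a library left out 117 kept both and 25 direction only. The trunk and limb count of 3 went to 2 with edgeR and DESeq2, 0 with 2 groups of libraries, 4 with genes as features and 4 lower with limb alone, and by side the count of 4 went to 2 with edgeR, 0 with DESeq2, 0 with 2 groups, 8 with neural tube alone and 6 with limb alone. Limb against CF went from 1 to 0 with edgeR, DESeq2 and 2 groups, and to 1 bin of the other direction at 150 kb and beyond. Late forebrain went from 4 to 2 without a filter, with 2 groups and at 150 kb and beyond, to 0 with edgeR and DESeq2, and to 1 of the other direction without scaling. The cause was not tested. With the replicate block the counts stayed at 3, 4, 3, 1, 0 and 4 in the order of trunk and limb, its sides, neural tube, limb, hindbrain and forebrain. Leaving out a library gave 3 to 3, 3 to 5, 0 to 3, 0 to 1, 0 to 0 and 2 to 6 in that order. Without scaling, all bins called higher and lower went from 205 and 262 to 121 and 368 for trunk and limb, 26 and 14 to 18 and 22 for neural tube, 10 and 5 to 138 and 7 for hindbrain and 125 and 280 to 60 and 220 for limb. The 822 HoxC calls became 665 with gene starts only, 704 at an FDR below 0.1% and 424 when called in both replicates. CTCF peaks in HoxC bins numbered 40, against 43 without a motif filter, 27 at the stricter motif threshold and 35 in the second lists against 37 in the same 11 first lists.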
